A study of Mus musculus with 6 samples.

Results

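The genes described here are the 34 glutathione transferase and glutathione metabolism genes of mouse liver, chosen by exact match of the gene symbol in the deposited table, which lists 30889 genes. All 34 were found there and all 34 passed the filter on low counts. They comprise 23 glutathione transferases (GSTs: 4 alpha, 7 mu, 2 pi, 3 theta, 1 kappa, 2 omega, 1 zeta and 3 membrane-bound) and 11 other enzymes, of which 3 make glutathione, 1 reduces it, 4 belong to the glutathione peroxidase family, and 3 act on it or with it in other ways. The study measured polyadenylated RNA in mouse liver after 14 days of oral treatment. Mice of the control group (3 libraries) received phosphate buffer saline, and mice of the extract group (3 libraries) received water extract of Emilia sonchifolia, a herb. Strain, sex, age, dose and number of animals are not in the labels used here. Nothing in the labels ties a library to an animal of its own, and the p-values therefore describe the spread among the libraries, which may be technical.

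Glutathione is a small peptide of glutamate, cysteine and glycine that liver cells hold at high concentration. GSTs join it to reactive or foreign molecules so that they can be exported, and the liver is known for abundant alpha, mu and pi enzymes that many plant compounds and drugs induce. Glutathione is made by glutamate-cysteine ligase (the catalytic subunit Gclc and the modifier subunit Gclm) followed by glutathione synthetase (Gss), is oxidised by peroxidases of the Gpx family that remove peroxides, and is reduced again by glutathione reductase (Gsr) with NADPH.

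The cytosolic alpha, mu and pi transferases carried most of the rises. With extract, 13 of the 34 genes were higher, 4 were lower and 17 did not pass the test (edgeR, Benjamini-Hochberg adjusted p under 0.05 over 18071 genes). Over all genes tested, 26.9% passed (14.2% higher and 12.8% lower), against 50% of the members. The members were chosen with earlier results of these data known, so these shares are not an independent comparison. Of the calls over all genes, 52.6% were higher, a share that was 42.8% when libraries were scaled by their totals alone and 39.6% to 40.2% with limma on FPKM as deposited. Among the 23 transferases, 9 were higher, 4 lower and 10 not called, with a median log2 fold change of 0.04. Among the 11 other enzymes, 4 were higher, none lower and 7 not called, with a median of 0.11. The median over all 34 was 0.09 and over all genes tested -0.02. All 9 transferases that rose were alpha, mu or pi enzymes, and the 3 theta, 2 omega and 1 zeta genes held none that passed. The difference between the transferases and the other enzymes as groups was not tested.

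**Figure D1:**
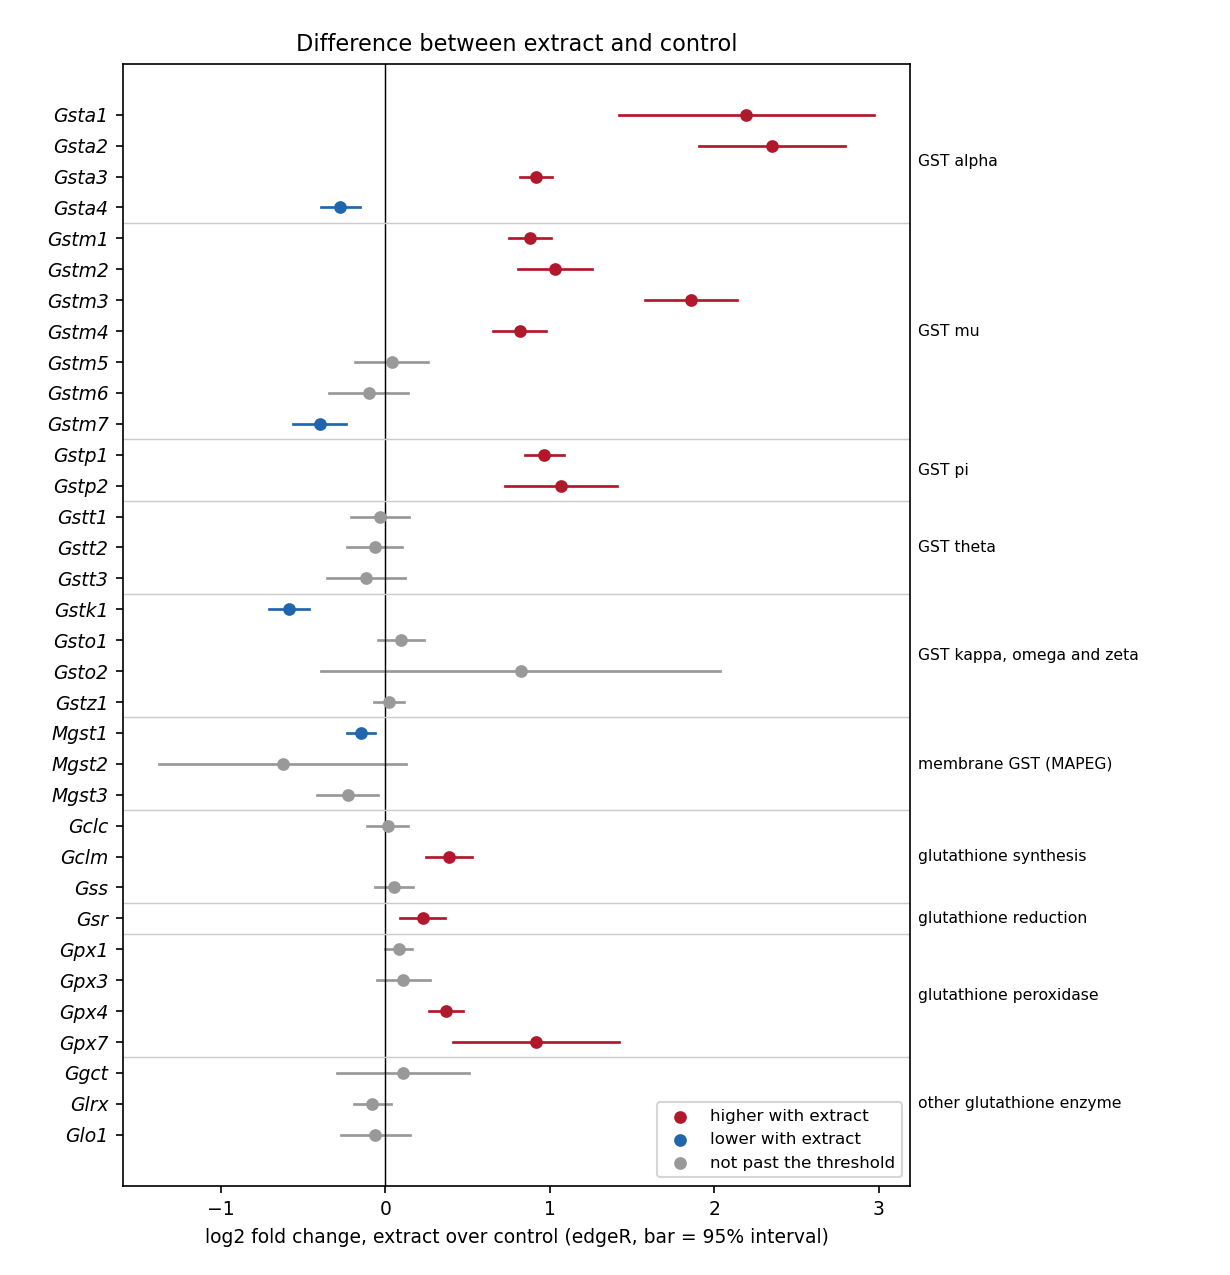
Log2 fold change of each gene, extract over control, with its 95% interval from edgeR (x axis), grouped by class (y axis). Red marks the 13 genes higher with extract, blue the 4 lower and grey the 17 not past the threshold. The rises above 0.8 that passed are in the alpha, mu and pi classes and Gpx7.

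In 20 of the 34 genes the FPKM values (fragments per kilobase of transcript, scaled to the number of mapped fragments) of the groups did not overlap, 14 with all extract libraries above and 6 with all below. The background was 44.6% of all genes tested, against 58.8% of the members. The 34 genes together took 0.733% to 0.751% of all counts in the control libraries and 0.877% to 0.886% in the extract libraries. Levels of different genes are compared below only in FPKM, which is scaled by length. FPKM ratios of extract over control were slightly lower than the edgeR folds, so rises look smaller and falls larger in FPKM. For Mgst1 the FPKM ratio was 0.866 and the edgeR fold 0.903. The scaling factors of edgeR (TMM) were 1.006 to 1.026 in the control libraries and 0.979 to 0.986 in the extract libraries. For Gsta3 the log2 fold change was 0.85 with limma on log2(FPKM + 0.5), 0.90 with limma on FPKM divided by these factors and 0.92 with edgeR. For Gsta4 the values were -0.33, -0.28 and -0.27. Beyond such values, the part of the factors in this difference was not tested.

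**Figure D2:**
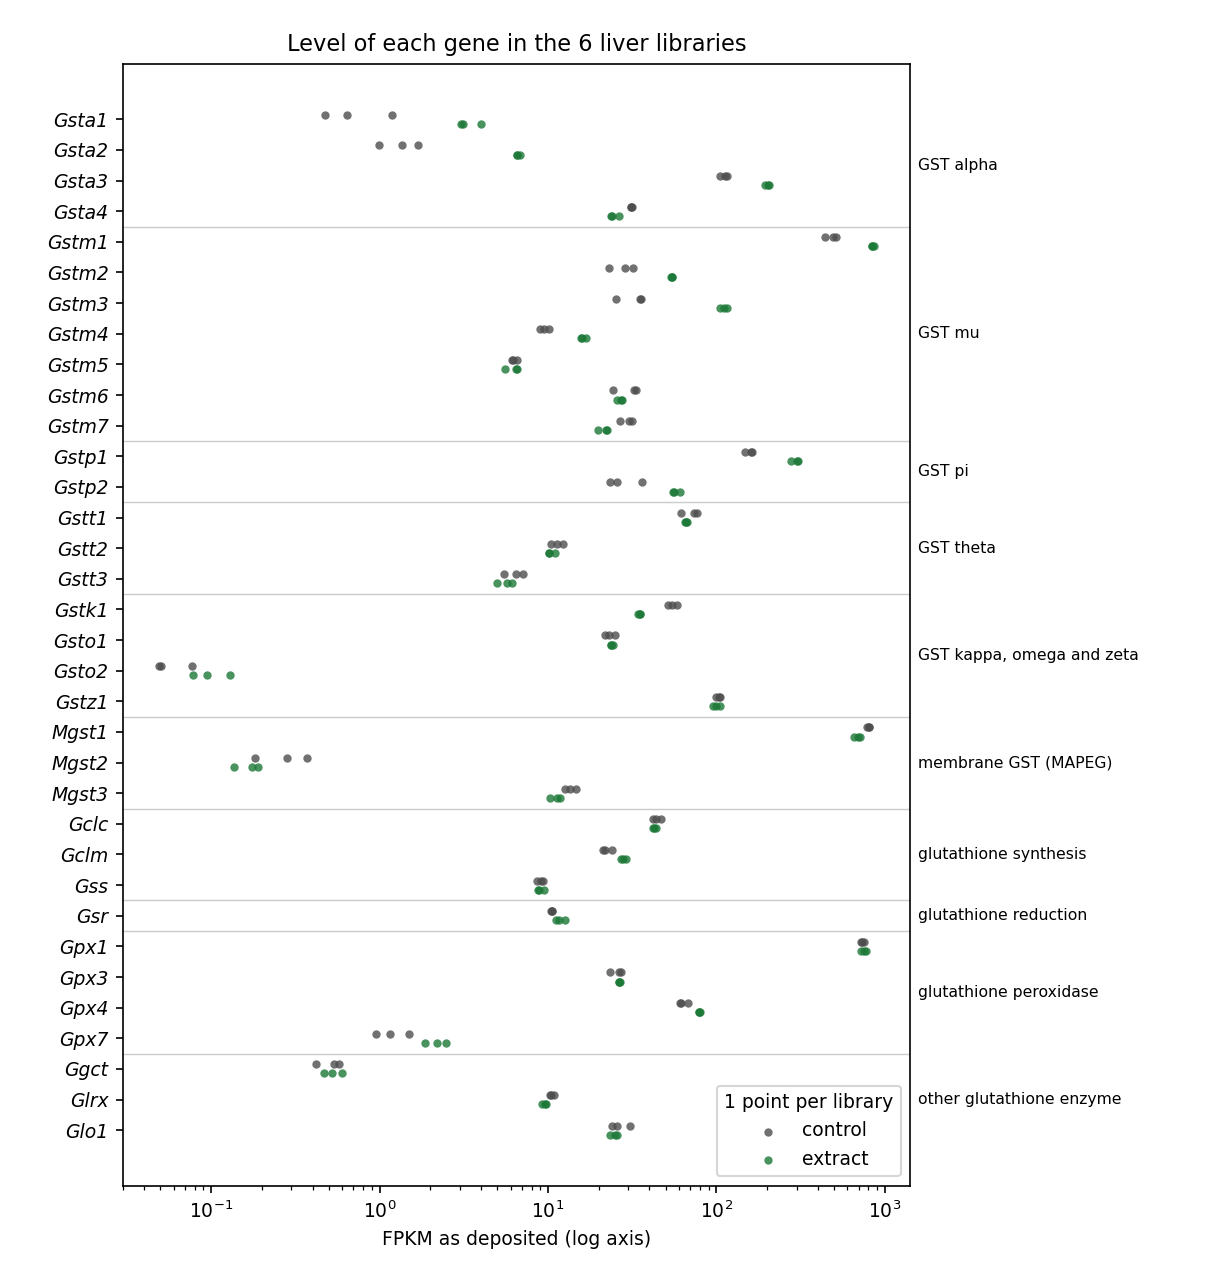
FPKM of each of the 34 genes in each library (x axis, log scale), with 1 point per library, grey for control and green for extract, grouped by class. Levels span from Gsto2 (mean 0.0588 in control) to Mgst1 (mean 795 in control), and the alpha, mu and pi genes that rose show separate grey and green points.

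The libraries held 51219533 to 61432016 estimated counts and between 22649 and 24178 genes above 0. Pearson correlations across genes of log2 FPKM were 0.955 to 0.965 between groups, 0.971 to 0.984 within control and 0.987 to 0.990 within extract. Hepatocyte markers were abundant in every library, with Alb (serum albumin) between 25373 and 33353 FPKM. Control 3 stood apart: skeletal muscle markers summed to 0.789 FPKM there at the low end of a control range that reached 183, against 170 to 244 with extract. Pancreas markers ranged from 5.89 to 55.2 FPKM in the controls, highest in control 3, and from 55.7 to 61.1 with extract. Results for the members were therefore also computed without each library.

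Markers of other cells of the liver moved between the groups. All 8 Kupffer cell markers fell (summed 341 to 349 FPKM in control, 204 to 219 with extract), as did all 6 red cell markers (1271 to 1615 against 198 to 236), 5 of 6 neutrophil markers (52.1 to 105 against 9.34 to 13.1), 3 of 5 B cell markers, 4 of 6 T and NK cell markers and 4 of 7 markers of sinusoidal endothelium. Hepatocyte markers were 2 higher and 4 lower of 8, with Tat (tyrosine aminotransferase) down from 774 to 819 FPKM to 441 to 458 and Hnf4a (a hepatocyte transcription factor) up from 108 to 113 FPKM to 123 to 126. Cholangiocyte markers were 2 lower of 7, and stellate cell markers 1 higher and 1 lower of 7. Of markers of other organs, 2 of 4 for gut epithelium fell, Fabp2 and Lgals4 (summed 67.5 to 78.0 FPKM in control, 39.3 to 44.0 with extract), and 1 of 4 for kidney, Kap, rose (summed 20.6 to 31.7 against 31.9 to 35.6). No marker was at 0 in all libraries. In bulk tissue, fewer cells of a type and less RNA per cell cannot be told apart, and the part of these shifts in the members' results was not tested.

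Promoter letters are shown for 6 chosen genes. They are the 2 pi genes, the most abundant alpha gene and the ligase modifier Gclm. The others are the alpha gene with the largest fold change and the most abundant membrane-bound gene, which fell. Each is the 250 bases before the RefSeq start on GRCm38.p6, 5′ to 3′ on the gene's own strand. Capitals mark matches on either strand to TGACNNNGC, the core of the antioxidant response element bound by the transcription factor Nrf2 with small Maf proteins, or to TGAGNNNGC, a form with G in place of C, which was added after the Gstp1 letters had been read.
Gstp1: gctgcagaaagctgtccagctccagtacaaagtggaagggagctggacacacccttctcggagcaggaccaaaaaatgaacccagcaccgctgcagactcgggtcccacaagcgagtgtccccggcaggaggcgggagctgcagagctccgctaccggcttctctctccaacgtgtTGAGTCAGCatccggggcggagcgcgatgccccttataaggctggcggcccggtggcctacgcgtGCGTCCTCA
Gstp2: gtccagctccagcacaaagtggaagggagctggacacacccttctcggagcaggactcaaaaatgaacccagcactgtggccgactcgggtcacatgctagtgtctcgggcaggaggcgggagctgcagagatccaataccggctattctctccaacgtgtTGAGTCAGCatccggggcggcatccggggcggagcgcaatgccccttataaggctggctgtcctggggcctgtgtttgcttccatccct
Gsta3: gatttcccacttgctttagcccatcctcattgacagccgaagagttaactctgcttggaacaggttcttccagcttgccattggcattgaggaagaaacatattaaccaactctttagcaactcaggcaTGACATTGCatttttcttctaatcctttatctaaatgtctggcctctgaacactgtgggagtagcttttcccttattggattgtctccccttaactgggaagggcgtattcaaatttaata
Gclm: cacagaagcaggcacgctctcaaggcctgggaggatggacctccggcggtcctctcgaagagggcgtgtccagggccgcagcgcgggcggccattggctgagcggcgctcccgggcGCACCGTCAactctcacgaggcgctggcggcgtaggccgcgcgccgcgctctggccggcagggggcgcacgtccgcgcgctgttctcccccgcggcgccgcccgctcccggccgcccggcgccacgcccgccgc
Mgst1: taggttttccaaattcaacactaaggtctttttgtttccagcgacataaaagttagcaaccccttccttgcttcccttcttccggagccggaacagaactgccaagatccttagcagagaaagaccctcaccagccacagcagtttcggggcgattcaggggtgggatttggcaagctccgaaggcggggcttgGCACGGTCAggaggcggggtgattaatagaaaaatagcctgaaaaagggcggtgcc
Gsta2: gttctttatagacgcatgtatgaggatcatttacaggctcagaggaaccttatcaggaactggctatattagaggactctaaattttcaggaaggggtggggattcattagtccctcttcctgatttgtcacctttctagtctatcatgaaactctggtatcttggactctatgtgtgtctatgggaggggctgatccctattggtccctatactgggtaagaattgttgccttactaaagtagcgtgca
The windows are chr19:4037913-4038162 (minus strand), chr19:4042222-4042471 (minus), chr1:21240335-21240584 (plus), chr3:122245307-122245556 (plus), chr6:138140277-138140526 (plus) and chr9:78347146-78347395 (minus), in the same order. For Gstp1, Gstp2, Gsta2 and Mgst1 the gene's span in the table reaches beyond this start, since other annotated transcripts begin elsewhere.

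The capitals fall at different distances from the start. Gstp1 and Gstp2 both hold TGAGTCAGC, 74 to 66 and 89 to 81 bases before the start, and their windows are 78.5% identical. Gstp1 holds a second match, GCGTCCTCA (the G form read on the reverse strand), 9 to 1 bases before the start. The first letters of TGAGTCAGC, TGAGTCA, also spell the usual AP-1 site, so the match overlaps another motif. Gsta3 holds TGACATTGC 121 to 113 bases before the start, Gclm holds GCACCGTCA (the reverse strand reading of the same core) 134 to 126 bases before it, and Mgst1 holds GCACGGTCA 56 to 48 bases before it. Gsta2 holds neither form, but it holds TAGCGTG 9 to 3 bases before the start, a match to TNGCGTG, the core of the xenobiotic response element bound by the aryl hydrocarbon receptor.

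RefSeq gave windows for 30 of the 34 genes, 43 windows in all since some genes have several starts. Either form of the antioxidant core was in 12 of these 43 windows (27.9%) and in 23.01% of the 32851 promoter windows of all genes. TGACNNNGC alone was in 6 of 43 (14.0%) against 10.2% of all, TGAGNNNGC in 7 of 43 (16.3%) against 14.4%, and TNGCGTG in 1 of 43 against 4.10%. By gene, either form was in 4 of the 12 higher genes with a window, 2 of the 3 lower genes (Mgst1 and Gstm7) and 5 of the 15 that did not pass. TGACNNNGC alone was in 2 of 12, 2 of 3 and 2 of 15. Gstp1 and Gstp2 are counted only through the G form, which was added after the Gstp1 letters had been read. All 4 of the higher genes with either form are among those printed above. Of the higher genes without either form only Gsta2 is printed, and Gstm1 and Gstm3 are among those left out. Another window of Mgst1, not printed, holds neither form. A match is a description of letters and no match says only that these letters are not in this window.

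The alpha class held the largest rises and 1 fall. Gsta1 and Gsta2 encode closely related alpha enzymes that reduce organic peroxides and conjugate electrophiles. Gsta2 (chr9:78331018-78355788, minus strand) was at 1.70, 1.36 and 0.998 FPKM in the control libraries and at 6.84, 6.57 and 6.53 with extract. All extract libraries lay above all controls, by 2.35 ± 0.19 (SE) on the log2 scale, a 5.10-fold rise (adjusted p = 0.000122). Gsta1 (chr9:78230656-78242684, plus strand) was at 1.18, 0.643 and 0.475 FPKM in control and 3.05, 3.13 and 3.98 with extract. The groups were again apart, and the rise was 4.58-fold (log2 2.20 ± 0.34, adjusted p = 0.00242).

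Most alpha transcript came from Gsta3, a main liver alpha enzyme that in mouse detoxifies aflatoxin epoxide. Gsta3 (chr1:21240589-21265661, plus strand) was at 115, 113 and 105 FPKM in control and 204, 206 and 194 with extract. The 6 values formed tight and separate groups, with a 1.89-fold rise (log2 0.92 ± 0.04, adjusted p = 9.21e-06). Gsta4, which clears 4-hydroxynonenal, a product of lipid peroxidation, went the other way: 31.0, 31.6 and 31.0 FPKM in control and 23.8, 26.3 and 24.1 with extract. Every extract library was below every control, and Gsta4 fell by 17.2% (log2 -0.27 ± 0.05, adjusted p = 0.00665). Summed over its 4 genes, the class went from 145 ± 6.16 FPKM (SD, n = 3) to 236 ± 6.97.

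Gsta1 values are uncertain because of its near copies. Of the 100-base windows of its transcripts, 80.6% also occur in another gene, 64.7% in the neighbouring predicted gene Gm3776, which rose by 2.46 ± 0.42 on the log2 scale (adjusted p = 0.00412). For Gsta2 the shared part was 28.4%, 18.2% with Gsta1. In 50-base windows the shared parts were 90.5% for Gsta1, 49.8% for Gsta2 and 0.273% for Gsta3. No 100-base window of Gsta3 or Gsta4 was shared, although an antisense gene overlaps Gsta3 and the counting is not stated to use strand.

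Among the mu genes, 4 of 7 rose, 1 fell and 2 did not pass. Mu enzymes conjugate a wide range of aromatic electrophiles and epoxides. Gstm1 (chr3:108012255-108017973, minus strand), the main mu enzyme of mouse liver, was at 511, 494 and 443 FPKM in control and 840, 845 and 869 with extract. The lowest extract library was well above the highest control, a 1.84-fold rise (log2 0.88 ± 0.05, adjusted p = 3.53e-05).

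Gstm3 showed the largest mu change. It was at 35.1, 35.6 and 25.2 FPKM in control and 105, 111 and 116 with extract. The groups were far apart and the rise was 3.63-fold (log2 1.86 ± 0.12, adjusted p = 4.29e-05). Gstm2 was at 28.7, 31.8 and 23.1 FPKM against 54.7, 54.7 and 54.1, with no overlap, a 2.04-fold rise (log2 1.03 ± 0.10, adjusted p = 0.000232). Gstm4, at 10.2, 8.97 and 9.45 FPKM against 16.8, 15.7 and 15.9, also had separate groups and rose 1.76-fold (log2 0.82 ± 0.07, adjusted p = 0.000144).

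The other 3 mu genes did not follow. Gstm7 was at 30.3, 31.7 and 26.7 FPKM in control and 22.2, 22.3 and 19.9 with extract. All extract values were below all controls, and Gstm7 fell by 24.1% (log2 -0.40 ± 0.07, adjusted p = 0.00445). Gstm5, an enzyme best known from brain and testis, was at 6.10, 6.56 and 6.19 FPKM against 6.46, 6.55 and 5.55, with overlapping groups (log2 0.04, 95% interval -0.18 to 0.26, adjusted p = 0.806). Gstm6 was at 32.5, 33.4 and 24.4 FPKM against 27.3, 27.6 and 25.8, overlapping only through control 3 (log2 -0.10, adjusted p = 0.518). Without control 3, Gstm6 was lower with extract (log2 -0.22, adjusted p = 0.00976).

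Control 3 was also the lowest control for Gstm1, Gstm2 and Gstm3, and without it these rises were 0.83, 0.92 and 1.72 on the log2 scale and still past the threshold. The class sum went from 618 ± 52.3 FPKM (SD, n = 3) to 1087 ± 17.2, of which Gstm1 gave most in every library. Sequence shared with other genes covered 13.8% of the 100-base windows of Gstm3, 5.86% of Gstm1 and 0.357% of Gstm2, and none of Gstm4 or Gstm7. With 50-base windows the shares were 28.8%, 18.9% and 5.65%, with none for Gstm4 and 0.532% for Gstm7. Of the pseudogenes involved, Gstm2-ps1 was counted at 16.8 FPKM in control and 33.2 with extract (means) and Gm8834 at 2.09 and 5.89.

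Of the pi genes, the 2 members Gstp1 and Gstp2 both rose, while Gstp3, a pi gene outside the member list, did not pass. Pi enzymes detoxify acrolein and other unsaturated aldehydes, and Gstp1 is the main pi gene of mouse liver. Gstp1 (chr19:4035407-4037985, minus strand) was at 148, 162 and 163 FPKM in control and 304, 303 and 280 with extract. The groups did not overlap, with a 1.96-fold rise (log2 0.97 ± 0.05, adjusted p = 1.62e-05). Its neighbour Gstp2 (chr19:4040285-4046023, minus strand) was at 23.5, 25.8 and 36.0 FPKM against 55.9, 60.5 and 55.3. Here too all extract values were higher, although control 3 stood above the other controls, and the rise was 2.10-fold (log2 1.07 ± 0.15, adjusted p = 0.00146).

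Gstp3, named here after its values were seen, was at 16.1, 17.1 and 19.2 FPKM in control and 18.3, 16.5 and 18.3 with extract, with overlapping groups (log2 0.08 ± 0.09, adjusted p = 0.531), and it passed in none of 17 alternatives. The sum of Gstp1 and Gstp2 went from 186 ± 14.1 to 353 ± 15.5 FPKM (SD, n = 3). Gstp1 exceeded Gstp2 by 4.54 to 6.28 times in the controls and 5.00 to 5.45 times with extract, overlapping ranges. The copies share sequence: 46.9% of the 100-base windows of Gstp2 and 25.1% of those of Gstp1 occur in another gene. With 50-base windows these shares were 54.3% and 33.7%. The split of reads between the copies is therefore uncertain. The pseudogene Gstp-ps, which matches part of both, was counted at 29.0 FPKM in control and 49.2 with extract (log2 0.82, adjusted p = 0.000952).

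**Figure D3:**
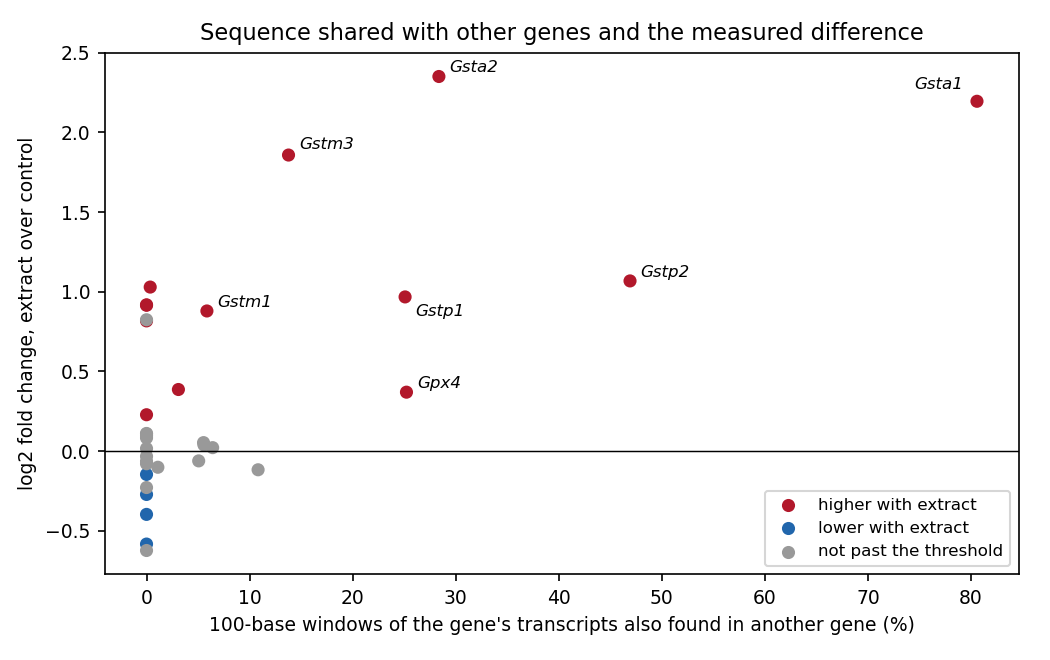
Share of each gene's 100-base transcript windows that also occur in another gene (x axis, percent) against the log2 fold change, extract over control (y axis), 1 point per gene, coloured by call. Gsta1 (80.6%), Gstp2 (46.9%) and Gsta2 (28.4%) share much sequence and are higher with extract, and genes with no shared window, such as Gsta3 and Gstm4, are also among those higher.

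Neighbouring genes of a class did not all move alike. On chromosome 3, 7 mu genes lie within a stretch of 149 kb in the order Gstm5, Gstm7, Gstm6, Gstm3, Gstm2, Gstm1 and Gstm4. The 4 that rose are the last 4 in this order, and Gstm7 and Gstm6, on the same strand, are next to them. In the alpha stretch of chromosome 9 (173 kb), Gsta4, which fell, comes first, and Gsta1 and Gsta2, which rose, follow it. The neighbours Gstp1 and Gstp2 on chromosome 19 both rose, Gstp3 did not pass, and the theta genes on chromosome 10 (Gstt3, Gstt1 and Gstt2) were not called. Promoter windows of the mu genes were 46.8% to 52.8% identical in pairs. Pairs that rose together were no closer (46.8% for Gstm3 and Gstm1, 52.8% for Gstm1 and Gstm4), whereas Gsta1 and Gsta2 shared 71.4%. Unlike genes gave values similar to the mu pairs, such as 52.4% for Gss and Gclm and 49.8% for Ggct and Glrx. A single window per gene was aligned, and that of Gstm6 lies upstream of the gene's deposited span.

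**Figure D4:**
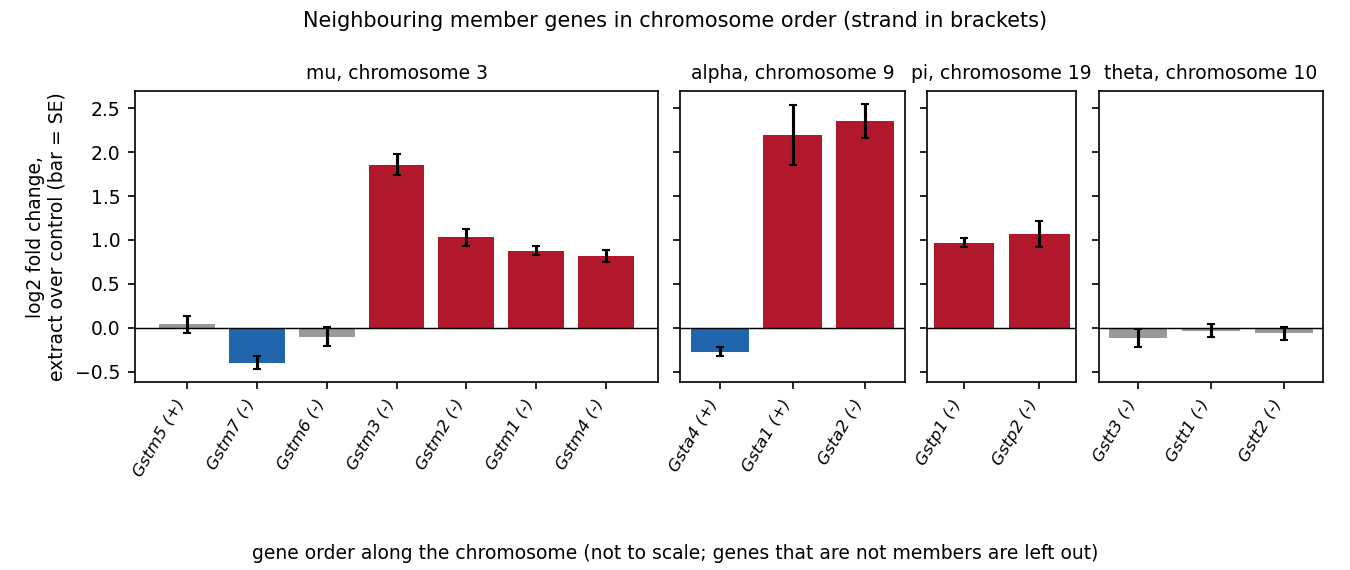
Log2 fold change, extract over control (y axis, bars with SE), of the member genes of each chromosomal cluster in order along the chromosome, not to scale, strand in brackets. In the mu cluster the rises are the 4 genes from Gstm3 to Gstm4 and Gstm7 fell, while in the alpha cluster Gsta4 fell beside Gsta1 and Gsta2, which rose.

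Theta, omega and zeta genes showed no change past the threshold. Theta enzymes act on small halogenated molecules. Gstt1 was at 76.9, 73.5 and 61.3 FPKM in control and 65.1, 66.8 and 66.4 with extract, with the extract values inside the control range (log2 -0.03, 95% interval -0.21 to 0.14, adjusted p = 0.790). Gstt2 and Gstt3 gave log2 fold changes of -0.06 and -0.12 with overlapping groups (adjusted p = 0.563 and 0.440). Gstz1, which also breaks down tyrosine as maleylacetoacetate isomerase, was at 105, 104 and 99.5 FPKM against 99.6, 105 and 96.0 (log2 0.02, 95% interval -0.07 to 0.11, adjusted p = 0.735). Gsto1, which reduces dehydroascorbate and arsenic compounds, overlapped as well (log2 0.10, adjusted p = 0.282).

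Gsto2 was the lowest of all members. Its estimated counts were 8, 9 and 12 in control and 21, 16 and 13 with extract, so that every extract library was higher by a few counts only. The log2 difference of 0.82 ± 0.53 did not pass (adjusted p = 0.288), with an interval from -0.39 to 2.04.

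Gstk1, the kappa transferase of mitochondria and peroxisomes, showed the largest fall past the threshold among the members. It was at 54.3, 58.5 and 51.3 FPKM in control and 34.2, 35.3 and 35.4 with extract. No extract library came near the lowest control, and Gstk1 fell by 33.3% (log2 -0.58 ± 0.05, adjusted p = 0.000183). None of its 100-base windows was shared with another gene.

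Membrane-bound transferases (MAPEG family) were lower or not called. Mgst1 (chr6:138140316-138156755, plus strand), an abundant enzyme of the endoplasmic reticulum and outer mitochondrial membrane with transferase and peroxidase activity, was at 780, 802 and 803 FPKM in control and 696, 711 and 660 with extract. Every extract value was below every control, and Mgst1 fell by 9.65% (log2 -0.15 ± 0.04, adjusted p = 0.0206). This call was lost in 6 of 17 alternatives, among them without control 2 (adjusted p = 0.0575) or without extract 1, 2 or 3 (adjusted p = 0.114, 0.0575 and 0.0892), all with the same direction.

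Mgst3, at 12.6, 14.7 and 13.5 FPKM in control and 10.3, 11.7 and 11.3 with extract, had groups that did not overlap but missed the threshold (log2 -0.23 ± 0.08, adjusted p = 0.0729). It passed in 5 of 17 alternatives. Mgst2, which is related to leukotriene C4 synthase, was at 0.279 ± 0.0957 FPKM (SD, n = 3) in control and 0.168 ± 0.0273 with extract, with overlapping groups (log2 -0.62, interval -1.38 to 0.13, adjusted p = 0.199).

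The make-up of the transferase pool differed accordingly. Summed over all 23 genes, transferase transcript went from 2027 ± 54.1 FPKM (SD, n = 3) in control to 2617 ± 40.1 with extract, 1.29 times as much. The 20 soluble enzymes went from 1218 ± 59.0 to 1917 ± 15.5, and the 3 membrane-bound ones from 809 ± 13.8 to 700 ± 26.6. Mu enzymes made up 30.5% of the pool in control and 41.5% with extract (means), pi 9.19% and 13.5%, and alpha 7.13% and 9.02%. Membrane-bound enzymes went from 39.9% to 26.7% of the pool. Soluble over membrane-bound transcript was 1.58, 1.53 and 1.41 in the control libraries and 2.70, 2.68 and 2.84 with extract, with no overlap. No test was made of these sums, which a few abundant genes dominate.

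**Figure D5:**
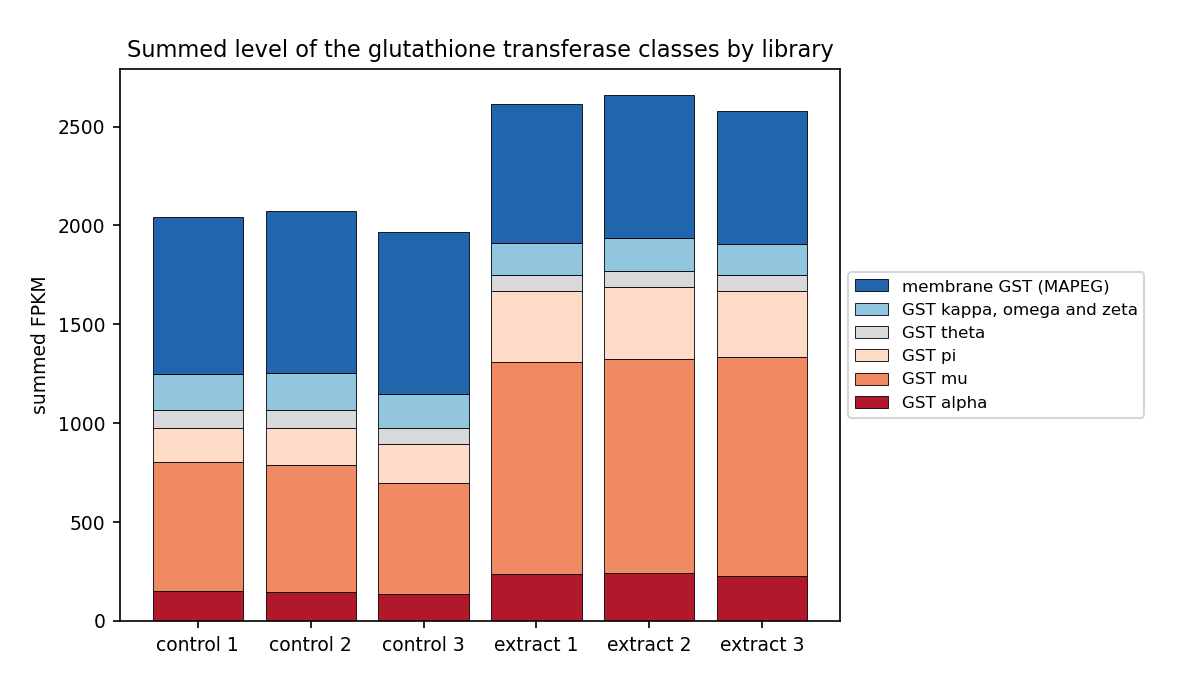
Summed FPKM of the transferase classes (stacked, y axis) in each of the 6 libraries (x axis). The totals are higher in the 3 extract libraries (mean 2617 against 2027), with larger mu, pi and alpha parts and a smaller membrane-bound part.

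The order of the 3 most abundant genes differed between the groups. In every control library Mgst1 was highest (780 to 803 FPKM), then Gpx1 (719 to 758), then Gstm1 (443 to 511). With extract Gstm1 was highest (840 to 869), then Gpx1 (721 to 769), then Mgst1 (660 to 711). Within each group the ranges of these 3 genes did not overlap.

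In glutathione synthesis, only the modifier subunit of the ligase changed past the threshold. Gclm (chr3:122245557-122270732, plus strand), which lowers the ligase's need for substrate and eases its feedback inhibition by glutathione, was at 21.2, 21.9 and 24.0 FPKM in control and 27.2, 27.8 and 29.0 with extract. All extract values were higher, a 1.31-fold rise (log2 0.39 ± 0.06, adjusted p = 0.00267). Gclc, the subunit that carries the catalytic site, was at 44.0, 42.1 and 47.0 FPKM against 44.0, 42.3 and 42.7. These groups overlapped fully, and the interval of the log2 difference ran from -0.11 to 0.14 (0.02, adjusted p = 0.855). The ratio of Gclc to Gclm was 2.08, 1.93 and 1.96 in control and 1.62, 1.52 and 1.47 with extract, separate ranges that were not tested.

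Gss, the second enzyme of synthesis, was at 9.10, 9.41 and 8.62 FPKM in control and 8.72, 9.41 and 8.84 with extract (log2 0.05, interval -0.06 to 0.17, adjusted p = 0.466). Several genes overlap Gss and Gclm in the annotation, among them antisense ones, and reads of overlapping genes could not be told apart. Gsr, the reductase, was at 10.6, 10.6 and 10.4 FPKM in control and 12.6, 11.2 and 11.7 with extract. The groups were apart by a small step, a 1.17-fold rise (log2 0.23 ± 0.06, adjusted p = 0.0242). This call held in 8 of 17 alternatives and was lost without control 2 (adjusted p = 0.0703), extract 1 (0.0558) or extract 3 (0.0680).

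Of the 4 peroxidases, 2 rose and the most abundant did not pass. Gpx1, the main cytosolic selenium peroxidase, was at 719, 758 and 732 FPKM in control and 753, 769 and 721 with extract. The groups overlapped (log2 0.08, interval 0.0008 to 0.16, unadjusted p = 0.0482, adjusted p = 0.125). Gpx4, which reduces phospholipid hydroperoxides in membranes, was at 61.9, 68.0 and 61.2 FPKM against 78.6, 79.5 and 78.6. Here the extract libraries were nearly alike and all higher, a 1.29-fold rise (log2 0.37 ± 0.05, adjusted p = 0.000797).

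Of the 100-base windows of Gpx4, 25.2% are shared (34.7% of 50-base windows), mainly with the pseudogene Gpx4-ps2. This pseudogene was counted at 24.9 FPKM in control and 28.7 with extract (log2 0.27, adjusted p = 0.0195). Gpx7, a peroxidase of the endoplasmic reticulum that helps oxidative protein folding, was low, at 0.959, 1.502 and 1.16 FPKM in control and 2.49, 1.87 and 2.20 with extract. The ranges did not overlap (log2 0.92 ± 0.22, a 1.89-fold rise, adjusted p = 0.0169). The Gpx7 call was lost without extract 1 (adjusted p = 0.0638) or extract 3 (0.0531). Gpx3, a secreted peroxidase, was at 26.3, 23.2 and 27.1 FPKM against 26.4, 26.3 and 26.6, with the extract values inside the control range (log2 0.11, interval -0.05 to 0.27, adjusted p = 0.280).

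The 3 remaining enzymes did not pass. Glrx (glutaredoxin 1), which removes glutathione from protein thiols, was at 10.4, 10.2 and 10.9 FPKM in control and 9.70, 9.65 and 9.20 with extract, with all extract values slightly below (log2 -0.08 ± 0.05, adjusted p = 0.269). Ggct, which cleaves gamma-glutamyl dipeptides, stayed near 0.5 FPKM in both groups (means 0.511 and 0.528, adjusted p = 0.691). Glo1, which uses glutathione to clear methylglyoxal, overlapped between groups (means 26.8 and 24.7 FPKM, adjusted p = 0.662).

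The rises are set side by side here without a test of their difference. The 9 transferases that rose did so 1.76 to 5.10 times, and the 4 other enzymes that rose did so 1.17 to 1.89 times, with Gsr, Gpx4 and Gclm at 1.31 or less. Summed FPKM of the 11 other enzymes was 951 ± 21.7 (SD, n = 3) in control and 982 ± 25.5 with extract, with overlapping groups. Synthesis genes summed to 75.8 ± 3.36 and 80.0 ± 0.542, and peroxidases to 827 ± 21.6 and 855 ± 24.8, both overlapping. Transferase over other transcript was 2.20, 2.13 and 2.06 in the control libraries and 2.65, 2.65 and 2.70 with extract. The count of other enzymes that rose went from 4 to 2 without extract 1 or without extract 3, through the loss of Gsr and Gpx7, while 9 transferases rose whichever library was left out.

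A wider list of 78 genes of glutathione turnover, transport, cysteine supply and use, and NADPH supply was examined in the same fit. Of these, 75 were in the table and 73 were tested, 19 of them higher, 11 lower and 43 not called (41.1% called, against 26.9% of all genes), with a median log2 fold change of 0.08. The number lower was 7 without extract 1. This list too was chosen with earlier results of these data known.

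Genes of cysteine supply and use moved in both directions, with 5 higher and 3 lower of 12 (66.7% called). The counts mix supply and use, so they give no direction for supply alone. Csad, which turns cysteine sulfinate towards taurine, was at 12.3, 12.95 and 14.8 FPKM in control and 44.7, 41.9 and 42.2 with extract. The groups were far apart, a 3.36-fold rise (log2 1.75 ± 0.08, adjusted p = 6.72e-06). Slc1a4, a transporter of neutral amino acids, rose 1.80-fold (log2 0.85 ± 0.14, adjusted p = 0.00320) from a low level of 1.45 ± 0.189 FPKM. The 2 enzymes that make cysteine from homocysteine were both lower: Cbs fell from 38.1 ± 1.44 to 26.4 ± 0.850 FPKM (log2 -0.46, adjusted p = 0.000214) and Cth from 88.1 ± 4.22 to 71.3 ± 4.88 (log2 -0.24, adjusted p = 0.0121). The Cth call was lost without extract 1 (adjusted p = 0.0723) or extract 3 (0.0535).

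Among 16 genes of NADPH supply and the thioredoxin system, 6 rose and 3 fell (56.2% called). Of the rises, Txnrd1, Srxn1 and Prdx6 passed in only 7, 6 and 4 of 17 alternatives, and Me1, Idh1 and Prdx3 in all 17. Me1 (malic enzyme), at 9.25, 8.52 and 7.70 FPKM in control and 16.04, 14.96 and 15.1 with extract, rose 1.89-fold (log2 0.92 ± 0.07, adjusted p = 9.26e-05), and Idh1 (cytosolic isocitrate dehydrogenase) rose 1.48-fold (adjusted p = 7.12e-05). G6pdx, the first enzyme of the pentose phosphate pathway and another source of NADPH, fell from 2.86 ± 0.281 to 1.76 ± 0.215 FPKM (log2 -0.64 ± 0.13, adjusted p = 0.00887). Prdx4, a peroxiredoxin of the endoplasmic reticulum, fell from 32.2 ± 0.957 to 25.9 ± 0.293 FPKM (log2 -0.26, adjusted p = 0.00321). Of these NADPH-producing enzymes, Me1 and Idh1 were higher and G6pdx lower.

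Of 11 genes of glutathione breakdown, 3 rose and none fell, a share called of 27.3% that is near the 26.9% of all genes. Oplah, which returns oxoproline to glutamate, rose 1.45-fold (adjusted p = 0.000593) and Ggt6, of the gamma-glutamyltransferase family, 1.33-fold (adjusted p = 0.0126). The Ggt6 call was lost without control 2 (adjusted p = 0.0575) or extract 2 (0.0562). Among 11 transporters, 4 rose and 1 fell (45.5% called). The mitochondrial carriers Slc25a10 and Slc25a39 rose 1.34-fold and 1.22-fold (adjusted p = 0.000189 and 0.00237). The export pumps moved in both directions. Abcc2 rose 1.22-fold, from a mean of 46.19 to 54.05 FPKM (adjusted p = 0.00735). Abcc3 rose 1.19-fold, from 27.96 to 31.98 FPKM (adjusted p = 0.00835). Each of these 2 calls held in 16 of 17 alternatives. Abcc5, at a much lower level, fell from 1.60 ± 0.144 to 0.768 ± 0.0546 FPKM (log2 -0.99 ± 0.09, adjusted p = 0.000225).

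Of 5 genes that handle mercapturates and cysteine conjugates, 1 rose and 1 fell (40% called, against 26.9% of all genes). Kyat1, a lyase that cleaves cysteine conjugates, rose 1.18-fold (adjusted p = 0.0136), a call lost in 6 of 17 alternatives, among them without extract 2 (adjusted p = 0.0557) or extract 3 (0.0549). Acy1, a deacylase of N-acetyl amino acids, fell by 0.24 on the log2 scale (adjusted p = 0.00950, and 0.0580 without extract 1). Among 7 glutaredoxin and glyoxalase genes tested, 2 fell and none rose (28.6% called, near the 26.9% of all genes). Ethe1, a mitochondrial persulfide dioxygenase that uses glutathione persulfide, fell from 16.7 ± 1.87 to 8.55 ± 0.602 FPKM (log2 -0.91 ± 0.09, adjusted p = 0.000246). Glrx2, a mitochondrial glutaredoxin, fell by 0.30 (adjusted p = 0.0229), a call lost in 6 of 17 alternatives, among them without control 1 (adjusted p = 0.0606) or extract 1, 2 or 3 (0.0632, 0.0934 and 0.0648). Of 8 other GST-related genes tested, 1 fell (12.5% called, against 26.9% of all genes), and none of 3 other peroxidases was called.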

How the data were processed

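Liver RNA of 6 libraries was measured after 14 days of treatment. Per the labels' protocols, RNA was captured on oligo(dT) beads. The use of strand is not stated. The tools listed in the submitters' processing notes, with no role given, are HISAT2 2.0.4, edgeR, StringTie 1.3.4d and cutadapt 1.9. No genome build is named there. Of the table's gene identifiers, 99.7% are in GENCODE M21 (GRCm38), 90.5% with the same chromosome, start and end, and coordinates are printed as the table gives them.

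The authors deposited estimated counts per gene, whole numbers used without rounding, and FPKM, per the file headers. Low counts peak at 4 (6292 entries, against 4117 at 3 and 2133 at 5), so a value of a few counts may come from a single fragment. Another 6 columns of per-sample values match no sample here and were not used.

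Counts were tested with edgeR 4.0.16 (R 4.3.3): filterByExpr kept 18071 genes, libraries were scaled by TMM, and extract was set against control by the two-sided quasi-likelihood test, adjusted after Benjamini and Hochberg at 0.05. In 1 simulation on these 18071 genes, edgeR recovered 55.1% of log2 changes of 1 and 76.5% of 2. In it, 11 of 140 calls (7.86%) were false. Changes were set in far fewer genes than the 4870 called in the data, so these rates need not hold there. Alternatives were DESeq2 1.42.0, limma 3.58.1 on log2(FPKM + 0.5), other pseudocounts, scalings and filters, counts divided by 4, a replicate block and each library left out. Shared sequence was counted as the share of 100-base windows of GENCODE M21 transcripts found in another gene. Windows of 50 bases were counted too and gave equal or larger shares. Promoter windows come from RefSeq on GRCm38.p6 and were aligned in pairs with Biopython 1.88.

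All 34 members are named. Of each wider list, up to 2 called genes per direction with the largest fold are named, where a group's mean reached 1 FPKM. Gstp3, Abcc2, Abcc3, Txnrd1, Srxn1, Prdx6 and Prdx3 are named besides. The members and lists were chosen with earlier results of these data known.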

Additional observations from a re-analysis of the deposited data

How the results depend on the processing

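Of the 17 members called, 14 were called in the same direction under all 17 alternatives (11 higher, 3 lower), and 15 of the 17 not called stayed so under every alternative that could be run. The exceptions are Mgst1, Gsr and Gpx7, which were lost in some, and Mgst3 and Gstm6, which passed in some. Gsto2 and Mgst2 were dropped by the filter in 5 and 4 alternatives. No alternative moved the median log2 fold change of all genes by more than 0.05, the largest shift being that with library sizes alone (median -0.07).

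Of the other glutathione enzymes, 2 to 4 were higher when each library was left out. Of the wider list, 14 to 21 were then higher and 7 to 11 lower, and with all libraries 12 were higher with limma without a filter. With each library left out, 3237 (without extract 2) to 4706 genes were called in all, against 4870 with all libraries. Whether replicate numbers pair the libraries is not stated. Deviations of libraries with the same number correlated at -0.12, -0.03 and -0.09, and those with different numbers at -0.07 to 0.15. So few libraries cannot settle whether they are paired. With the replicate number as a block, 3746 genes were called, and 11 members were higher and 3 lower, 2 of the other enzymes being higher. In that fit Mgst1, Gsr and Gpx7 were not called (adjusted p = 0.0733, 0.0555 and 0.0549).

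Log2 values changed sign in genes that were not called. With library sizes alone, Gstm5 was at -0.0107, Gstz1 at -0.0269 and Gclc at -0.0321. With limma on FPKM at pseudocounts of 0.5, 0.1 and 1, Gstm5 was at -0.0232, -0.0249 and -0.0214, Gstz1 at -0.0395, -0.0397 and -0.0393, Gclc at -0.0427, -0.0431 and -0.0423 and Gss at -0.0079, -0.0082 and -0.0075, and without a filter the values were those at 0.5. With each library left out, Gstt1 ranged from -0.116 to 0.0349 (above 0 without control 1), Gstt2 from -0.118 to 0.00376 and Glo1 from -0.137 to 0.0623 (both above 0 without control 3), and Gclc from -0.0281 to 0.0688 and Ggct from -0.0194 to 0.201 (both below 0 without control 2). The cause of these changes was not tested.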
